A study of Bos taurus with 21 samples.

Results

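The miRNA described here is bta-miR-21-5p, the 5′ arm product of the bovine MIR21 hairpin, taken by its name from the deposited table as 1 of 126 entries, 89 of which carry a miRNA name. It was followed over 21 libraries of small RNA from extracellular vesicles, small membrane particles shed by cells, purified from cow's milk. The libraries came from 7 healthy cows, 7 cows with subclinical mastitis (an udder inflammation without visible signs) and 7 cows with clinical mastitis, with different cows in each group. No breed, age, parity, pathogen or treatment is stated in the sample labels, which name 1 tissue, milk, for all groups. The unit is RPM, in which the reads of all listed entries of a library add up to 1000000. The values of a library are whole multiples of its smallest value above 0, and with that value taken as 1 read the listed reads numbered 954 to 9587 per library (median 3943). In RefSeq's cattle genes (assembly ARS-UCD2.0) the name matched MIR21 (1 of 1), which follows VMP1, the gene of a vacuole membrane protein, and does not overlap it. No other entry of the table is named for miR-21.

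miR-21-5p is a miRNA of many tissues, a short RNA that guides Argonaute proteins to messenger RNAs whose 3′ untranslated regions pair with its seed. Transcription of its gene is known, mostly from human and mouse cells, to respond to STAT3, AP-1 and NF-kB, and its known targets there include PDCD4, an inhibitor of translation. It is commonly among the abundant miRNAs of milk and is often raised in inflamed tissue. The libraries hold small RNA of vesicles, so neither the targets nor the cells of origin were measured.

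miR-21-5p was present in every subclinical library, in 2 of 7 healthy libraries and in no clinical library. In the subclinical group it stood at 254 RPM in subclinical 1 (1 read), 1120 in subclinical 2 (2 reads), 603 in subclinical 3 (3 reads), 54442 in subclinical 4 (163 reads), 293 in subclinical 5 (1 read), 506 in subclinical 6 (2 reads) and 939 in subclinical 8 (2 reads). Subclinical 4 thus stood far above the other 6, which had a median of 554 RPM and a mean of 619 ± 348 RPM (SD, n = 6). In the healthy group it stood at 317 RPM in healthy 4 (1 read) and 4193 RPM in healthy 5 (4 reads), and at 0 in healthy 1, 2, 3, 6 and 9. The healthy range therefore overlapped the subclinical one, and healthy 5 was higher than every subclinical library except subclinical 4. Healthy 5 was also the shallowest library, with 954 listed reads, so that 1 read was worth 1048 RPM there.

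Counting error was wide in all libraries but subclinical 4. The exact Clopper-Pearson 95% interval was 46587 to 63182 RPM in subclinical 4, 1144 to 10700 RPM in healthy 5 and 6.42 to 1412 RPM in subclinical 1. For a library at 0, the level that 3 reads would give was taken as the upper limit of what 0 reads allow. It is not a threshold of presence, which was counted from 1 read. Those limits ran from 544 RPM in clinical 10 to 1052 RPM in clinical 5, and from 313 RPM in healthy 2 to 1178 RPM in healthy 3. In 6 of the 7 clinical libraries the limit lay above the median of the 6 lower subclinical libraries, so that at this depth a single clinical library could not be told from a typical subclinical one. Intervals and limits cover counting error only.

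**Figure D1:**
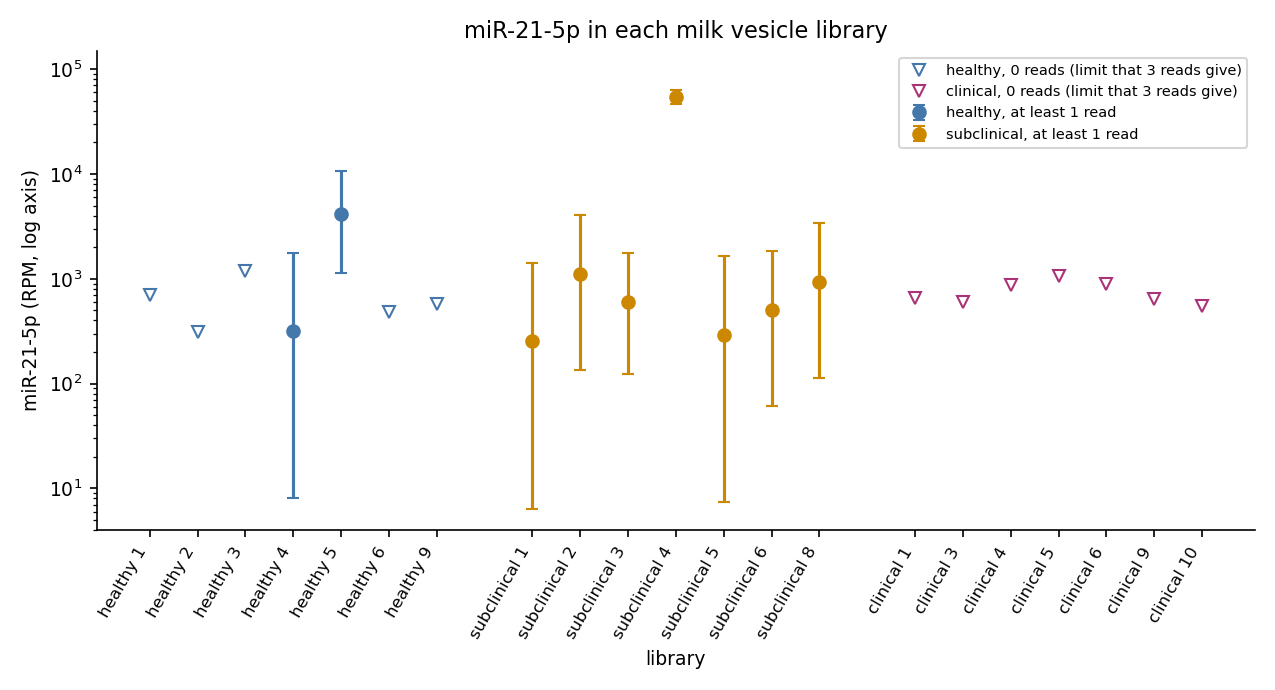
miR-21-5p in each library, in RPM on a log axis. Filled circles are libraries with at least 1 read with exact 95% intervals, and open triangles are libraries with 0 reads, drawn at the level 3 reads would give. Subclinical 4 lies at 54442 RPM, and the other 6 subclinical libraries lie between 254 and 1120 RPM, where the clinical limits run from 544 to 1052 RPM.

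Among the named miRNAs, miR-21-5p was the most widely found. It was above 0 in 9 of 21 libraries, and no other named miRNA was above 0 in more than 5. Outside subclinical 4 it held 16 of the 91 reads of named miRNAs, followed by let-7b, a let-7 family member, with 7, and by miR-30a-5p, a miR-30 family member, miR-574, miR-1246 and hsa-miR-8485 with 6 each. It ranked first among the named miRNAs, with no tie, in 5 of 7 subclinical libraries and in healthy 5. Outside subclinical 4 those first places rested on 2 to 4 reads. In subclinical 1 its single read was tied with others and came after miR-2484 and miR-30e-5p, with 2 reads each. In subclinical 5 its single read was tied with others and came after miR-30a-5p, with 2 reads. Against all entries its rank was 4 of the 91 above 0 in subclinical 4, 16 of 29 in healthy 5, and 20 to 23 in the other libraries that held it, since provisional entries took nearly all of the listed reads.

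In subclinical 4, miR-21-5p led the miRNAs of a library that was itself rich in them. Its 163 reads were 42.8% of the 381 reads of named miRNAs there (exact 95% interval 37.8% to 47.9%), and the next were miR-30a-5p with 28 reads, miR-24-3p with 15, let-7f with 12 and miR-92a with 9. Of the 67 other named miRNAs in that library, 17 were also found in another library. The remaining named reads of subclinical 4 came to 72812 RPM, against at most 3297 RPM in the other subclinical libraries. The part of this library's general content of named miRNAs in its level of miR-21-5p was not tested.

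The share of miR-21-5p among the reads of named miRNAs does not depend on how many provisional reads a library holds. It was 26.8% in the 6 other subclinical libraries together (11 of 41 reads, exact 95% interval 14.2% to 42.9%) and 20% in the healthy group (5 of 25, 6.83% to 40.7%). In the clinical group it was 0% (0 of 25, 0% to 13.7% by the same kind of interval). The clinical libraries held other named miRNAs at 849 RPM (Poisson 95% interval 550 to 1254), and the healthy ones held them at 624 RPM (381 to 963). The clinical ones included miR-1246 with 5 reads and an entry named hsa-miR-8485 with 6, all 6 in clinical 10. The clinical group had as many named reads as the healthy group, 25 each, and none of the clinical ones was miR-21-5p. The part of miRNA content in the clinical zeros was not tested. Clinical 10 held 11 of the clinical named reads and clinical 1 held 7, and the other clinical libraries held 1 to 3 each. Without healthy 5 the healthy share was 1 of 18 reads (5.56%, interval 0.141% to 27.3%). These shares pool reads over cows and were not tested.

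**Figure D2:**
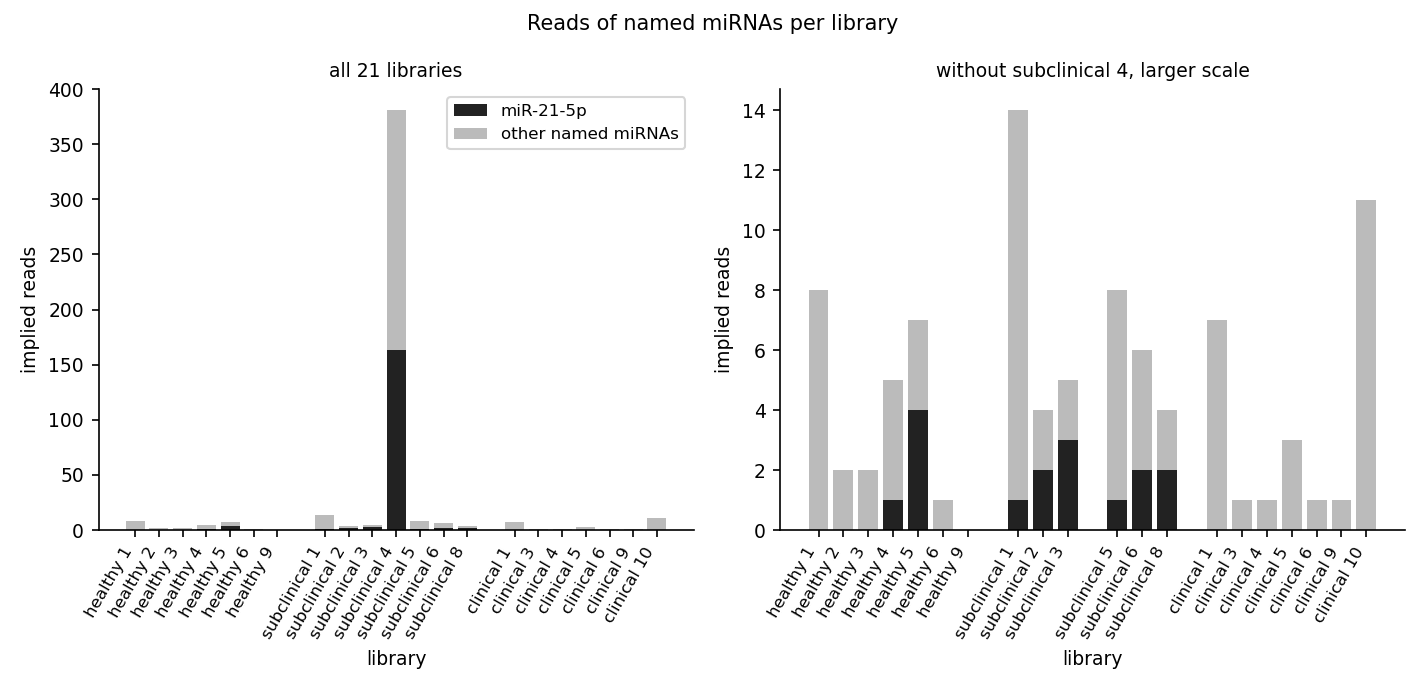
Implied reads of named miRNAs per library, with miR-21-5p in black and the other named miRNAs in grey, in all 21 libraries (left) and without subclinical 4 on a larger scale (right). Black segments stand in all 7 subclinical libraries and in healthy 4 and healthy 5, and clinical bars are grey throughout.

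Subclinical was set against healthy milk to ask whether miR-21-5p differs when mastitis shows no visible signs. It was above 0 in 7 of 7 against 2 of 7 libraries, a difference that passed an exact two-sided permutation test over libraries (p = 0.021, adjusted p = 0.0315 over the 3 pairs of groups). The adjustment over 3 pairs does not cover the choice of this miRNA, which was made with earlier results of these data known. With at least 2 reads required it was 5 of 7 against 1 of 7, and the exact permutation test no longer passed (adjusted p = 0.154). For presence at any level it was the one entry of 126 with an unadjusted p under 0.05 in that test (0.794%), and adjusted over all 126 entries no entry passed. Many entries could not have reached that p, among them 16 above 0 in all libraries and 50 found in subclinical 4 alone. That share is therefore a weak background. The pooled rate of the 6 lower subclinical libraries was 545 RPM, 3.49 times the 156 RPM of the healthy group, with an exact counting interval of 1.12 to 12.8. Without healthy 5 as well the ratio was 16.9 (2.46 to 729), resting on 1 healthy read. With subclinical 4 included it was 48.1 (20.2 to 150). These ratios pool reads over cows, so their intervals leave out the spread between cows.

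On the log2(RPM + 1) scale the fitted difference was 7.12 (SE 1.94, 95% interval 3.25 to 10.99) by limma, and its Benjamini-Hochberg adjusted p over 126 entries, 0.0579, did not pass 0.05. No entry passed in this comparison (0%), and 6 entries (4.76%) had an unadjusted p under 0.05, miR-21-5p with the smallest. The exact permutation test of the same values gave an unadjusted p of 0.014 and an adjusted p of 0.441, and called no entry either. The size of the fitted difference depends on the pseudocount, because 1 RPM is far below the worth of 1 read: with 500 RPM in its place it was 1.35. Leaving out healthy 4, healthy 5 or clinical 3 brought the adjusted p under 0.05 (0.0163, 0.00169 and 0.0205), and leaving out any of the other 18 left it above, between 0.0586 and 0.272, the highest without healthy 6. Without subclinical 4 it was 0.17.

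Clinical was set against subclinical milk to ask whether the overt and the hidden form of mastitis differ in miR-21-5p. It was lower in clinical milk, where 0 of 29434 listed reads were miR-21-5p against 174 of 23191 in the subclinical group. The groups did not overlap, which held for this entry alone among 126 (0.794%). The exact two-sided permutation p of the number of libraries above 0 was 0.000583, the smallest the 14 libraries can give, with an adjusted p of 0.00175 over the 3 pairs of groups, and the same values held without subclinical 4. Here, too, the adjustment over 3 pairs does not cover the choice of the miRNA with earlier results known. Adjusted over all 126 entries, the exact permutation p was 0.0734, the lowest value that a single entry at the smallest p can reach, so that this adjusted test could not pass here at any size of difference. The pooled rate of the 6 lower subclinical libraries was 545 RPM (Poisson 95% interval 272 to 975). That is 5.34 times the 102 RPM that 3 reads over the clinical group would give. The interval of the pooled rate lay above the upper end of the clinical one (125 RPM). Both intervals pool reads over cows and cover counting error only, so they do not measure the spread between cows. When a library had to hold at least 2 reads, the counts were 5 of 7 and 0 of 7, and the exact permutation test did not pass (adjusted p = 0.0629).

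limma's moderated test called miR-21-5p here, with a fitted log2 difference of -10.02 (SE 1.94, adjusted p = 0.000241). It was 1 of 4 entries called (3.17% of 126), all of them lower in clinical milk. The call held whichever library was left out, with an adjusted p between 3.64e-05 and 0.00622. It was lost with a pseudocount of 500 RPM (log2 difference -1.92, adjusted p = 0.0867).

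Clinical and healthy milk were not told apart. miR-21-5p was above 0 in 0 of 7 and 2 of 7 libraries, and the exact permutation p of 0.462 is the smallest that 2 libraries above 0 can give in this design. limma's fitted log2 difference was -2.91 (SE 1.94, 95% interval -6.78 to 0.96, adjusted p = 0.917), where 4 of 126 entries passed (3.17%). The pooled healthy rate, 156 RPM with a Poisson 95% interval of 50.6 to 364, overlapped what 0 reads allow in the clinical group (up to 125 RPM by the same interval). These intervals, too, pool reads over cows and cover counting error only. Without healthy 5 the healthy rate was 32.1 RPM, from 1 read. In order of level the groups were subclinical, healthy and clinical, the place of healthy milk above clinical resting mostly on healthy 5, and neither neighbouring pair of that order passed limma's test over all entries.

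**Figure D3:**
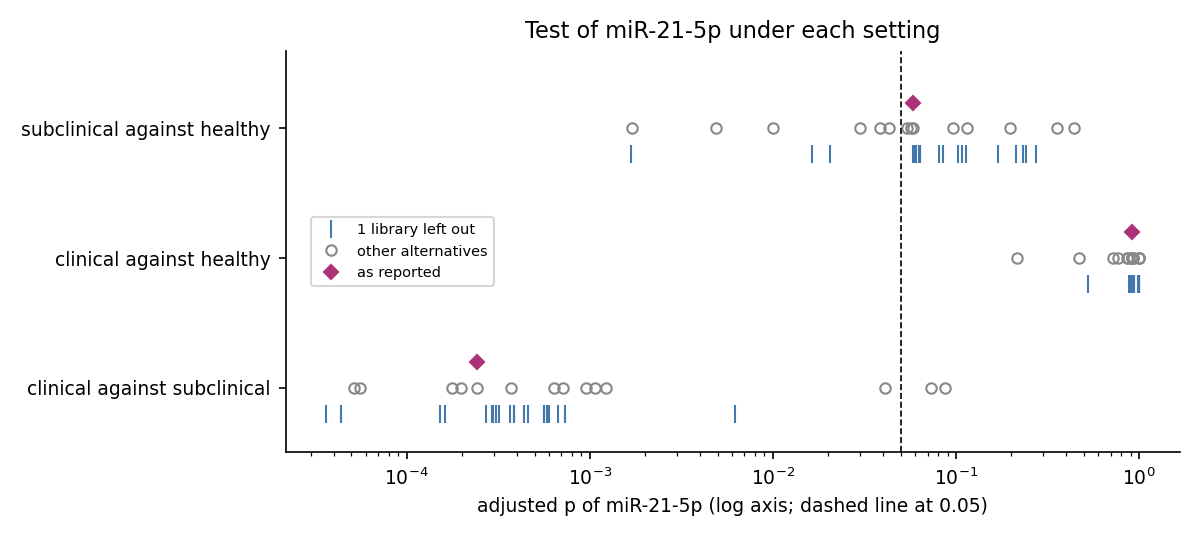
Adjusted p of miR-21-5p in each comparison on a log axis, with the reported value as a diamond, each library left out as a bar and every other alternative as an open circle. Clinical against subclinical lies under 0.05 in all but 2 settings, and subclinical against healthy lies on both sides of it.

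Subclinical libraries, all of which held miR-21-5p, were not the deepest. Their listed reads had a median of 3410, against 4290 in healthy and 4566 in clinical libraries. If every library were thinned to the 954 reads of the shallowest, the expected number of libraries with at least 1 read of miR-21-5p, computed exactly from the reads, would be 3.9 of 7 subclinical, 1.3 of 7 healthy and 0 of 7 clinical. A library with 0 reads stays at 0 when thinned, so the clinical value was fixed in advance and says nothing about those zeros. Healthy 5 is itself the library of 954 reads and was not thinned. With log2 listed reads as a covariate in limma, the fitted difference between subclinical and healthy milk was 6.35 (adjusted p = 0.096). Between clinical and subclinical milk it was -8.87 (adjusted p = 0.000374). Both checks on depth were added once the values were known.

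Of a list of 12 miRNAs known to respond to inflammation, 4 are in the table, miR-21-5p among them. The other 3 were miR-125b with 2 reads, a relative of the lin-4 miRNA of worms, and miR-221 with 1 read and miR-222 with 2, a clustered pair that shares its seed. All 5 of those reads were in subclinical 4. The other libraries held 16 reads of miR-21-5p together, too few to tell whether the same ratio held there. The list members miR-146a, miR-155 and miR-223, of which miR-223 is a miRNA of neutrophils, are not among the listed entries. Of the miRNAs known to be abundant in milk, 11 of 15 are listed, and those with the most reads were miR-21-5p (179), miR-30a-5p (34) and let-7f (13). Of these, 163, 28 and 12 were in subclinical 4, and without that library let-7b, with 7 reads, followed miR-21-5p.

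Marker miRNAs of the cells that milk vesicles can come from had few reads. Of the 7 leukocyte-enriched miRNAs, 2 are listed, and their summed reads were 0 in every healthy and clinical library and 0 to 2 in subclinical libraries. Of the 8 epithelial miRNAs, 2 are listed, with 0 in every healthy and clinical library and 0 to 4 in subclinical ones. Subclinical 4 held 2 of the 3 subclinical reads of the leukocyte list and 4 of the 5 of the epithelial list. The erythrocyte list (1 of 4 listed) and the endothelial list (1 of 2) had reads in subclinical 4 alone, 2 and 1. The mesenchymal list (2 of 4 listed) held 1 healthy read, 5 subclinical reads, 3 of them in subclinical 4, and 0 clinical ones. In subclinical 1, which held 1 read of miR-21-5p, there was also 1 read each of miR-143 and miR-22-3p from that list and of miR-181a from the leukocyte list. The defining markers miR-223, miR-142, miR-200c, miR-141 and miR-451 are not among the listed entries, so the source of the vesicles could not be checked, and the part of any cell type in the level of miR-21-5p was not tested.

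The entries whose pattern over the libraries was most like that of miR-21-5p were mostly provisional ones, which carry an identifier but no miRNA name. Among the 30 other entries above 0 in at least 5 libraries, Pearson's r of the log2(RPM + 1) values over 21 libraries was highest for 18_30249 (0.68), 26_37774 (0.59), miR-30a-5p (0.57), 6_10969 (0.46) and 27_38734 (0.44). These values describe libraries that fall into 3 groups and share a fixed sum, and carry no test. Without subclinical 4 they were 0.66, 0.47, 0.40, 0.41 and 0.46, so that miR-30a-5p moved from the third to the tenth place.

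Entry 18_30249 stayed the closest with or without subclinical 4. It was above 0 in all 21 libraries, with a median of 3226 RPM in subclinical (1268 to 7977), 1166 RPM in healthy (480 to 4711) and 802 RPM in clinical libraries (181 to 2126). The 3 groups overlapped, and its log2 difference of -1.80 in clinical against subclinical milk (SE 0.91) did not pass limma's test (adjusted p = 0.319). Both healthy libraries that held miR-21-5p were among the 3 highest healthy libraries for this entry, with 4442 RPM in healthy 4 and 4193 RPM in healthy 5, after 4711 RPM in healthy 3. Entry 27_38734 was above 0 in 7 of 7 subclinical libraries, in 4 of 7 healthy and in 4 of 7 clinical libraries, with 26, 5 and 11 reads, and subclinical 4 held 1 of the 26.

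**Figure D4:**
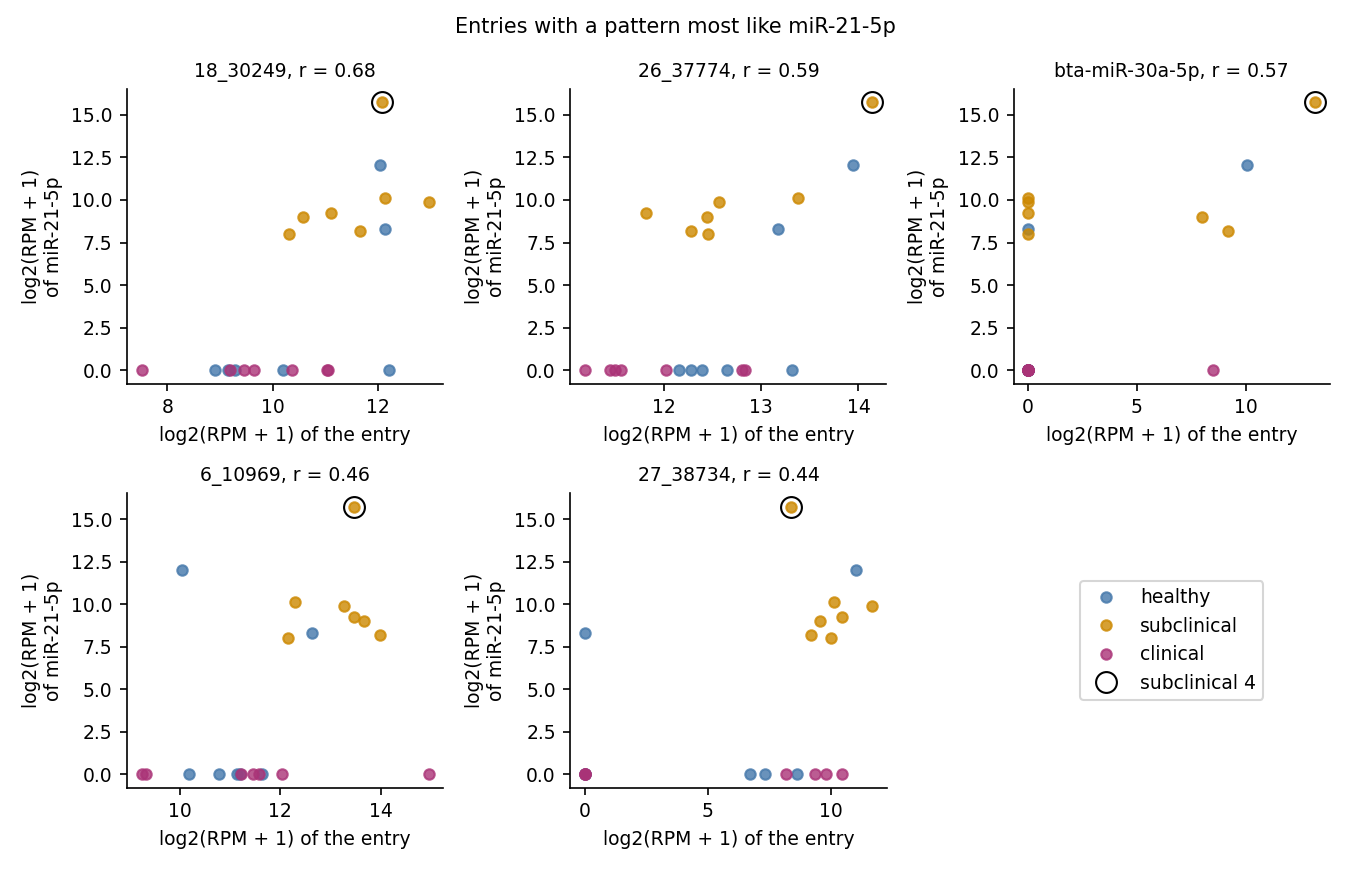
log2(RPM + 1) of miR-21-5p (vertical) against that of the 5 entries most like it (horizontal), 1 panel an entry and 1 point a library, coloured by group, with subclinical 4 circled. Clinical libraries lie at 0 for miR-21-5p at every level of the other entry, and in the panel of miR-30a-5p most libraries lie at 0 on both axes or on the horizontal one.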

How the data were processed

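The table holds 126 entries, 21 library columns and 3 columns of group means, which differ from the means of the library columns by at most 4.3e-07. Its values are called TPM but are RPM by their form, as the authors deposited them: each column sums to 1000000, and 100% of the 629 library values above 0 lie within 0.01 of a whole multiple of the column's smallest one. Per the submitters' processing notes, Bowtie, edgeR and the build ARS-UCD1.2 were used. For trimming, length filters and the miRNA database no source used here gives details. Reads in the table are those assigned to listed entries, not the depth of the libraries.

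Columns were matched to samples by title number and group. limma 3.58.1 in R 4.3.3 was run with a variance trend on log2(RPM + 1) for all 126 entries and 21 libraries in 1 fit, with group as the only term, a minimum mean of 1 RPM (all 126 entries passed) and an adjusted p under 0.05 as the threshold. Exact permutation tests, two-sided, ran over libraries. The code was tested on simulated data. Descriptions and figures used Python 3.11.15 with pandas 2.3.3, SciPy 1.17.1, NumPy 2.4.6 and matplotlib 3.10.9. Count models were not run, since the table gives RPM and its reads are only implied. Named entries were miR-21-5p, the measured inflammation list, the leading named miRNAs of subclinical 4, the 3 leading milk miRNAs and the 5 entries with the highest Pearson r among those above 0 in at least 5 libraries. let-7b, miR-574, miR-1246, hsa-miR-8485 and the members of the marker lists were named after their values were seen. The miRNA and the lists were chosen with earlier results of these data known. No separate cultures or repeat samplings are described, so p-values measure the spread between 1 library per cow. No coordinates are printed, because RefSeq's assembly is not the build the submitters name.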

Additional observations from a re-analysis of the deposited data

Results flagged for a closer look

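In groups of 7 libraries the gap between the most extreme library and its neighbour was divided by the range of the group. This ratio was compared with Dixon's 95% critical value of 0.568, which chance passes in about 1 in 20 groups of normally distributed values. miR-21-5p in subclinical 4 (54442 RPM, next 1120 RPM) and in healthy 5 (4193 RPM, next 317 RPM) stood apart, with ratios of 0.984 and 0.924. The same libraries stood apart in the percentage of listed reads that were named miRNAs, 12.7% in subclinical 4 and 0.734% in healthy 5. For named miRNAs other than miR-21-5p, subclinical 4 stood apart at 72812 RPM (next 3297 RPM). The listed reads of no library stood apart in any of the 3 groups.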

How the results depend on the processing

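For clinical against subclinical milk, miR-21-5p stayed lower in all 35 alternatives and passed in 33, with the difference between -10.36 and -9.07 when 1 library was left out. With every clinical value at 0 and every subclinical one above 0, the direction could hardly change. In each comparison 1 of the 35, the setting with no filter, repeats the reported fit, since all 126 entries passed the filter. It did not pass with a pseudocount of 500 (-1.92). Exact permutation over 126 entries (-10.02) could not pass, since the smallest p of the design gives a single entry an adjusted p of 0.0734. For subclinical against healthy milk it stayed higher in all 35 alternatives and passed in 9, with an adjusted p from 0.00169 to 0.441: with a pseudocount of 10 (4.76), with entries averaging 1000 RPM or more, fits of 2 groups or no trend (7.12 each), array weights (6.44), without both subclinical 4 and healthy 5 (7.69), and without healthy 4, healthy 5 or clinical 3. Its difference lay between 6.16 and 8.64 when 1 library was left out. For clinical against healthy milk none of 35 alternatives passed (-3.39 to -1.39 when 1 library was left out). When a library had to hold at least 2 reads, the difference in the share of libraries with miR-21-5p no longer passed, at 57.1 percentage points for subclinical against healthy (adjusted p = 0.154, exact permutation) and -71.4 for clinical against subclinical (0.0629). It ranged from 66.7 to 83.3 points for subclinical against healthy when 1 library was left out, and was -100 throughout for clinical against subclinical. Of all entries, 0, 4 and 4 passed in subclinical against healthy, clinical against healthy and clinical against subclinical milk. Without trend these counts were 1, 0 and 1, with the replicate block 0, 0 and 1, and with a pseudocount of 500 they were 0, 5 and 0. Leaving out 1 library gave 0 to 1, 3 to 6 and 3 to 5. Trimmed-mean scaling shifted the 3 comparisons as a whole by -0.16, -0.32 and -0.17 on the log2 scale, but the differences of miR-21-5p, set mostly by its values at 0, were 7.11, -2.92 and -10.03 with no change of call. The cause of these changes was not tested.

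Title numbers recur across groups although the cows differ. Deviations of same-numbered libraries from their group means correlated at -0.29 to 0.21, so the numbers were not taken to pair the libraries. With the number as a replicate block in limma, the log2 differences of miR-21-5p were 6.92 (adjusted p = 0.198), -3.12 (0.924) and -10.04 (0.0408). Without the block the adjusted p of the last, clinical against subclinical, was 0.000241 by limma.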
